A study of Homo sapiens with 10 samples.

Results

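The genes described here are 7 markers of vascular endothelium, CDH5, ESAM, ROBO4, ENG, PECAM1, VWF and EGFL7, read in a breast cancer cell line. They are 7 of 19775 genes that the array annotation names. All probe sets annotated to one of them alone were taken, which gave 14 of 54675. No probe set named one of the 7 genes beside another gene. At least 1 probe set of each gene, and 11 of the 14 in all, reached a log2 value of 5 on at least 2 arrays, the limit set for testing. MDA-MB-231 is an established human line of triple-negative breast cancer, meaning that it lacks oestrogen and progesterone receptors and amplified ERBB2. Total RNA was hybridised to Affymetrix arrays, 2 arrays for each of 5 lines of cells. The first line was the parental culture, labelled sensitive to SM-164, a Smac mimetic, which is a drug class that antagonises inhibitor of apoptosis proteins. The other 4 lines, T2, T3, T6 and T8, were tumour cells isolated from MDA-MB-231 xenografts in SCID mice. Those mice had received SM-164 into a vein at 5 mg/kg, on 5 days a week for 2 weeks, and their tumours had shrunk and then grown again. The labels call T2 and T3 resistant to SM-164, and T6 and T8 sensitive. Every tumour had therefore been both grown in a mouse and exposed to the drug, and no xenograft without SM-164 was analysed here, so growth in the mouse and the drug cannot be told apart. SCID mice lack mature T and B cells but keep their own endothelium, fibroblasts and myeloid cells. Whether both arrays of a line stem from different cultures is not given in the labels, so a p-value here speaks to array spread, and that spread may be technical.

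Endothelial cells line blood vessels and hold together through adherens junctions and tight junctions, while they read blood flow and guidance cues through surface receptors. CDH5, or VE-cadherin, is the cadherin of their adherens junctions. ESAM is an immunoglobulin-family adhesion molecule of endothelial tight junctions and platelets, and PECAM1 is an adhesion molecule of endothelium, platelets and leukocytes. ENG, or endoglin, is a co-receptor for BMP and TGF-beta ligands, and ROBO4 is a vascular receptor of the roundabout family. VWF is the clotting glycoprotein that endothelium stores in Weibel-Palade bodies, and EGFL7 is a secreted protein that endothelial cells deposit in their matrix. Some cancer cells are known to express genes of this kind outside endothelium, a behaviour described as vasculogenic mimicry.

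The sequence just upstream of a gene is where ETS factors, a family that includes the endothelial regulators ERG and FLI1, are known to act, through sites with the core GGAA. Promoter sequences in the RefSeq table of GRCh38.p14, from 250 bases before to 50 bases after an annotated start, matched 3 of the 7 genes, ROBO4, ENG and EGFL7. CDH5, ESAM, PECAM1 and VWF had no entry. Of EGFL7's 2 starts in the table, the downstream one is printed. These 3 windows are shown because only these genes had an entry. ROBO4 and 1 ENG probe set rose in the tumours while EGFL7 fell, and a link between the windows and these changes was not tested. Capitals mark GGAAG and its reverse complement CTTCC.
ROBO4, chr11:124897816-124898115, minus strand: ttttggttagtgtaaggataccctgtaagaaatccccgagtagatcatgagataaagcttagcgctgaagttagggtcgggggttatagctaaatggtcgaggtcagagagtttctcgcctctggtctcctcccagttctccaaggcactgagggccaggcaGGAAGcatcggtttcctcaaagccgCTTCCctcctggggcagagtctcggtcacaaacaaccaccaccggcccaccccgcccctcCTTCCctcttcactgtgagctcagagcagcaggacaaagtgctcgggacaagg
ENG, chr9:127854609-127854908, minus strand: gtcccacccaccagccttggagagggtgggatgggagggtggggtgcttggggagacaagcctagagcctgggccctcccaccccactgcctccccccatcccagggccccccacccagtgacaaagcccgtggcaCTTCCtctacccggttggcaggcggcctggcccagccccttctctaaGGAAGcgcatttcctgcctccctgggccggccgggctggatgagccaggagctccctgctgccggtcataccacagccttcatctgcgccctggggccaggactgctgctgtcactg
EGFL7, chr9:136662666-136662965, plus strand: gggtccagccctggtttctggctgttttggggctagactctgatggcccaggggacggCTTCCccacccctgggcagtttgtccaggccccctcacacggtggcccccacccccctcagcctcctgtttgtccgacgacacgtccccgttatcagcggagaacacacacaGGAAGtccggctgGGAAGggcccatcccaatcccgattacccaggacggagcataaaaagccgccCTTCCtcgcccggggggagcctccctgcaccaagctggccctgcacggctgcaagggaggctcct
The ROBO4 window held 3 matches, the ENG window 2 and this EGFL7 window 4, against 1 at the other EGFL7 start, chr9:136658606-136658905 on the plus strand. Such a match is common, since 73.7% of 22198 promoter windows of protein-coding genes held at least 1 on either strand. The longer CAGGAAG, chosen after the sequences were seen and overlapping the shorter motif, lay in 12.6% of windows. It was found once in ROBO4 and once at each EGFL7 start, and it was not in the ENG window. TATAAA was in none of the 4 windows and in 9.5% of all windows. The ROBO4 window held 55.3% G and C, below the median window at 62.3%, and the ENG window held 68.3%.

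The values were RMA log2 expression values made by the authors. Arrays have no read depth, so precision here is set by how many arrays there are and how far a signal stands above background. Over 135 probe sets of 102 olfactory receptor genes, taken as genes not expected in a breast cancer line, the mean log2 value had a median of 4.27 and ran from 3.36 to 6.16 between the 5th and 95th percentiles. Of these, 21.5% averaged at least log2 5, against 57.9% of all probe sets. A log2 value of 5 is therefore a low bar, and a value between log2 5 and 6.16 lies within the range of genes not expected in these cells. Arrays of 1 line correlated at r = 0.9954 to 0.9978 over the tested probe sets, while r between lines ran from 0.9735 to 0.994. A list of 8 genes expected in MDA-MB-231, such as VIM and KRT8, averaged log2 12.49 to 12.71 on every array. Of 5 genes expected to be low, PGR stayed below log2 5 on every array, while ESR1 (line means of 6.56 to 6.71), ERBB2 (8.83 to 9.26) and EPCAM (8.40 to 9.10) read above the olfactory receptor range.

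Not all of these probe sets read above the olfactory receptor range. The probe sets of ESAM (line means of log2 9.58 to 11.10), ROBO4 (6.65 to 7.51 and 9.21 to 10.56), and EGFL7 (7.14 to 7.96) read above the olfactory receptor range in every line. So did 1 PECAM1 probe set, with line means of 6.73 to 7.25. ENG 201808_s_at lay within that range, with line means of 5.71 to 5.96. ENG 201809_s_at lay within it in parental cells (5.98) and above it in the tumours (6.53 to 7.39). The remaining 4 PECAM1 probe sets, both VWF probe sets and CDH5 gave line means from 3.35 to 6.43. Levels of different probe sets cannot be set against each other, since each binds with its own strength. In bulk RNA, a change in the number of cells that express a gene and a change in the RNA per cell cannot be told apart.

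**Figure D1:**
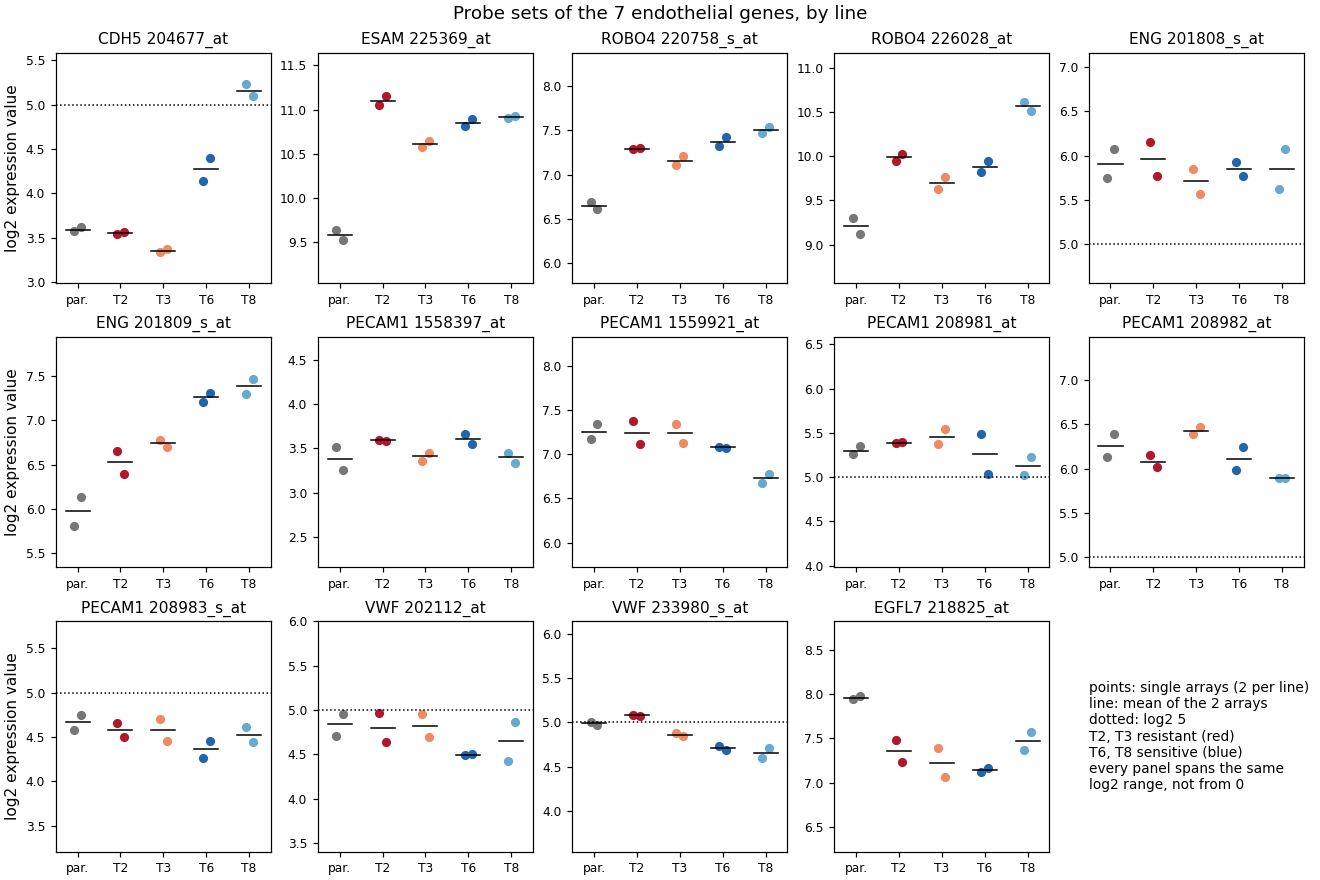
Log2 expression value of each of the 14 member probe sets (1 panel each) on the 10 arrays, grouped by line on the horizontal axis, with the 2 arrays of a line as points and their mean as a bar. The dotted line is log2 5, and every panel spans the same log2 range. ESAM and both ROBO4 probe sets were lowest in parental cells, while CDH5 reached log2 5 in T8 alone.

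When the 4 regrown tumours were set against the parental cells they came from, ESAM, ROBO4 and 1 probe set of ENG rose, and EGFL7 fell. CDH5 was called higher too, but it passed the limit for testing through the 2 T8 arrays alone. In T2 and T3 it lay slightly below parental cells, and neither difference was called. PECAM1 and VWF did not pass the test in either direction. In limma's fit over arrays, with 1 coefficient per line and p-values adjusted by Benjamini-Hochberg over 33341 probe sets, 6 of the 11 tested probe sets were called at an adjusted p under 0.05, 5 of them higher and 1 lower. Over all probe sets 36.5% were called, 22.1% higher and 14.4% lower. The tumours thus differed widely from the parental cells, and the members' count is to be read against that. Their median change was 0.00, like that of all tested probe sets. With a limit set on the mean over all arrays instead, at log2 5 and chosen after the data were seen, CDH5 and the brighter VWF probe set were not tested, and 5 of 9 probe sets were called, 4 higher and 1 lower, against 37.6% of all. In 4 of the 11 probe sets every tumour array lay above both parental arrays, against 14.1% of all tested probe sets, and in 1 every tumour array lay below, against 11.6%. Each of the 6 calls held in every alternative in which the probe set could be tested.

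Between resistant and sensitive tumours, over arrays, ENG and ROBO4 were lower in T2 and T3 than in T6 and T8 at 1 probe set each, and 1 PECAM1 probe set was higher. CDH5 was called lower and 1 VWF probe set higher, but CDH5 passed the limit for testing through the T8 arrays alone and VWF through 3 arrays of parental cells and T2. Resistant and sensitive arrays did not overlap at the called CDH5, ENG, PECAM1 and VWF probe sets or at the other ROBO4 probe set. That made 2 above (3.72% of all tested probe sets) and 3 below (6.42%). VWF is among those above and CDH5 among those below, both with the limit just given. No count without them was set against all probe sets. The calls made 5 of 11 probe sets, 2 higher and 3 lower, against 15.9% of all tested probe sets, 3.74% higher and 12.2% lower. With the limit on the mean over all arrays, 3 of 9 were called, 1 higher and 2 lower, against 16.5% of all. The members' count fell to 3 of 11 without T2 replicate 1, T3 replicate 1 or either T6 array. It fell to 3 of 10 without T8 replicate 2, and to 2 of 10 without T8 replicate 1. The share of all probe sets called fell too in these fits, to between 7.31% and 10.3%. The split of all calls moved with scaling. Of 5297 calls 23.5% were higher in the fit reported here, against 43.8% when quantile normalisation was repeated and 50.6% when array medians were centred. This test asks whether these 4 particular tumours differed beyond the spread between arrays of a line. With the tumour as the replicate, 2 against 2, limma called 0 of 33341 probe sets and none of the 11 members, of which 3 had an unadjusted p under 0.05. In all 1579 probe sets had an unadjusted p under 0.05, and the smallest adjusted p was 0.845. The 11 members include CDH5 and the called VWF probe set, admitted as given above, so their count of 3 carries the same limit. With each line as a random block over arrays limma called 9 probe sets, none of them a member. For a single gene the smallest two-sided p an exact permutation of 2 tumours against 2 can give is 0.333. The members' response values below therefore describe these tumours and not the classes resistant and sensitive.

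**Figure D2:**
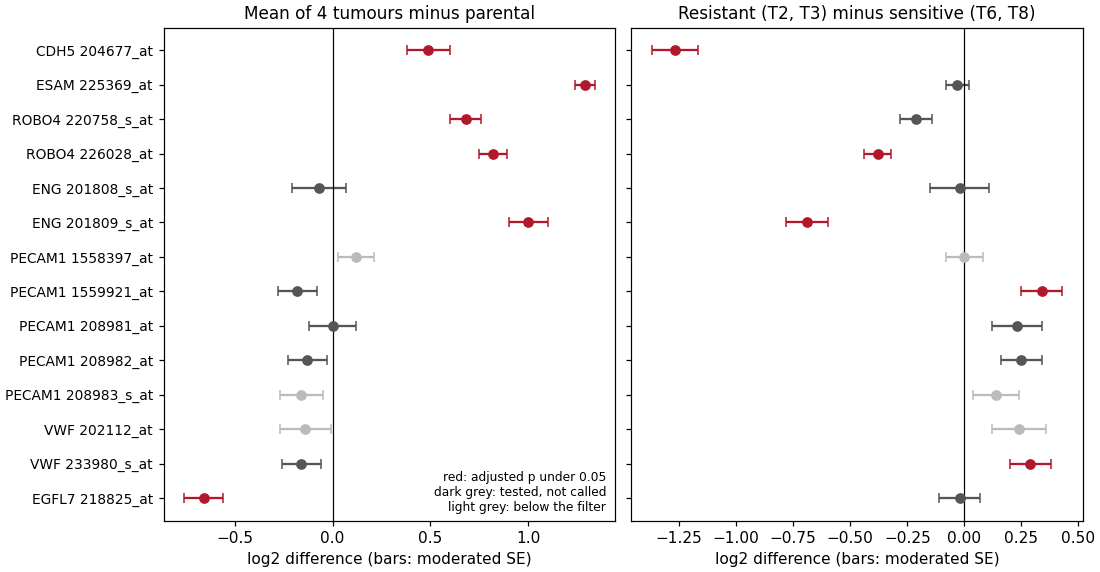
Log2 difference with its standard error for each of the 14 member probe sets, in the 4 tumours minus parental cells and in resistant minus sensitive tumours (limma over arrays), with probe sets called at an adjusted p under 0.05 in red, other tested ones in dark grey and those below the limit for testing in light grey. ESAM stood at 1.29 in the first comparison and -0.03 in the second, while CDH5 stood at 0.49 and -1.27.

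The 5 lines differed in 9 of the 11 probe sets by limma's moderated F test over arrays, against 49.8% of all tested probe sets. The exceptions were ENG 201808_s_at and PECAM1 208981_at. The mean of T8 was the highest of the 5 lines in 4 probe sets, those of CDH5, ROBO4 (both) and ENG 201809_s_at, where 22.7% of all tested probe sets have T8 highest. It was the lowest in another 4, 3 of PECAM1 and 1 of VWF, where 17.9% have T8 lowest. In 2 of these 8, CDH5 and ROBO4 226028_at, T8 differed from the next line. CDH5 was tested only because T8 was high, so its place in the counts of this paragraph was favoured by the limit. The same limit admitted VWF 233980_s_at through arrays of parental cells and T2 alone. Parental cells were the lowest line in 4 probe sets (27.4% of all) and the highest in 2 (28%), and in 5 of these 6, those of ESAM, ROBO4 (both), ENG 201809_s_at and EGFL7, they differed from the next line. Against parental cells, T8 differed in 9 of 11 probe sets, 5 higher and 4 lower, and 37.4% of all probe sets were called in that comparison, 24.2% higher and 13.2% lower. T2 and T3 each differed from parental cells in 5 (27.2% and 32.1% of all probe sets) and T6 in 6 (29.3%). Over the 10 pairs of lines the members gave 47 calls, where 22.9% of all tests were called. With the limit on the mean over all arrays, CDH5 and the brighter VWF probe set were left out. The lines then differed in 7 of 9 probe sets, against 51.3% of all. The pairs gave 38 calls, where 23.8% of all tests were called. Without T8 replicate 1, which left T8 with 1 array, fewer calls were made over lines and over pairs. That held both for the members and for all probe sets.

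CDH5, the adherens-junction cadherin, was measured by 1 probe set. It read log2 3.57 and 3.62 in parental cells, 3.54 and 3.56 in T2, 3.34 and 3.37 in T3, 4.14 and 4.40 in T6, and 5.23 and 5.10 in T8. Only the T8 arrays reached log2 5, and through these 2 arrays alone did the probe set pass the limit for testing. The sensitive arrays all lay above the resistant ones and above parental cells. The order of lines was T3, T2, parental, T6 and T8, in which T6 exceeded parental cells by 0.68 ± 0.14 (SE) and T8 exceeded T6 by 0.89 ± 0.14, while T3, T2 and parental cells lay within 0.24 of each other. Resistant tumours were lower than sensitive ones by 1.27 on the log2 scale (SE 0.10), and the mean of the 4 tumours was 0.49 ± 0.11 above parental cells, with tumour and parental arrays overlapping. These differences are given as a description, with no fold or p-value, since the probe set was tested only because T8 was high. All of these values, those of T8 included, lie within or just below the olfactory receptor range, and all but those of T8 lie under log2 5. Without either T8 array the probe set failed the limit and was not tested.

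ESAM, the tight-junction adhesion molecule, had the largest change against parental cells among the tested member probe sets when the 4 tumours were averaged, while in T8 alone CDH5, ROBO4 226028_at and ENG 201809_s_at differed from parental cells by more (1.57, 1.35 and 1.41 against 1.33) and in T6 ENG 201809_s_at did (1.29 against 1.27). Its single probe set read log2 9.64 and 9.53 in parental cells, 11.05 and 11.15 in T2, 10.58 and 10.65 in T3, 10.82 and 10.89 in T6, and 10.91 and 10.93 in T8. Every tumour array lay above both parental arrays. The tumours were 1.29 ± 0.05 higher on the log2 scale, 2.44-fold (limma adjusted p = 7.59e-11). The rise was present in each tumour, from 1.03 ± 0.07 in T3 to 1.51 ± 0.07 in T2. In the order parental, T3, T6, T8, T2, the steps from parental to T3 and from T3 to T6 passed the test (adjusted p = 1.88e-08 and 0.0216), and those from T6 to T8 and from T8 to T2 did not (0.658 and 0.0708, limma). Resistant and sensitive tumours had means of 10.85 and 10.89, a difference of -0.03 ± 0.05 (limma adjusted p = 0.705), whose sign turned under both other scalings.

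PECAM1, the adhesion molecule shared by endothelium, platelets and leukocytes, had 5 probe sets, and 3 of them passed the limit for testing. Probe sets 1558397_at and 208983_s_at stayed below log2 5 on every array, at 3.25 to 3.66 and 4.26 to 4.75. Probe set 208981_at ran from 5.02 to 5.54, within the olfactory receptor range, and 208982_at from 5.90 to 6.47, around its upper end. Only 1559921_at was brighter, with log2 7.17 and 7.34 in parental cells, 7.37 and 7.11 in T2, 7.34 and 7.13 in T3, 7.08 and 7.07 in T6, and 6.67 and 6.78 in T8. The resistant arrays lay above the sensitive ones by a narrow gap, and the 2 T8 arrays were the lowest of the 10. Resistant tumours exceeded sensitive ones by 0.34 ± 0.09 there (limma adjusted p = 0.0162). That call was lost without T2 replicate 1, T3 replicate 1, either T6 array or T8 replicate 1, with adjusted p up to 0.0817 (limma), and when the gene's probe sets were averaged (difference 0.19, adjusted p = 0.055). The difference at 208982_at was 0.25 ± 0.09 (limma adjusted p = 0.0794) and that at 208981_at 0.23 ± 0.11 (limma adjusted p = 0.171). Against parental cells the 3 tested probe sets gave -0.18, 0.00 and -0.13, and none passed. The 5 probe sets did not rise and fall together, with r between pairs from -0.58 to 0.71 over the 10 arrays.

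ROBO4, the vascular roundabout receptor, was measured by 2 probe sets that moved together, with r = 0.92 over the 10 arrays. The brighter, 226028_at, read log2 9.30 and 9.12 in parental cells, 9.95 and 10.02 in T2, 9.63 and 9.76 in T3, 9.82 and 9.94 in T6, and 10.61 and 10.51 in T8. The other, 220758_s_at, read 6.69 and 6.61 in parental cells, 7.29 and 7.30 in T2, 7.11 and 7.21 in T3, 7.32 and 7.42 in T6, and 7.47 and 7.54 in T8. At both, all tumour arrays lay above the parental arrays and the T8 arrays were the highest. The tumours were higher by 0.82 ± 0.07 (1.76-fold, adjusted p = 1.32e-07) and 0.68 ± 0.08 (1.6-fold, adjusted p = 8.01e-06) by limma. At 226028_at, T8 exceeded the next line, T2, by 0.57 ± 0.08 (limma adjusted p = 0.00013). T3 exceeded parental cells by 0.48 ± 0.08 (0.000373), and T3, T6 and T2 did not differ step by step, although T2 exceeded T3 by 0.29 (0.0176). At 220758_s_at T3 exceeded parental cells by 0.51 ± 0.10 (limma adjusted p = 0.0012), no step between neighbouring tumours passed the test, and T8 exceeded T3 by 0.35 ± 0.10 (0.0346). Resistant tumours were lower by 0.38 at 226028_at (SE 0.06, limma adjusted p = 0.000745), where their arrays overlapped with those of the sensitive tumours. At 220758_s_at the resistant arrays all lay below the sensitive ones, with a difference of -0.21 ± 0.07 that missed the threshold (limma adjusted p = 0.0593) and passed it with a limit of log2 6 (0.044) and without an intensity trend (0.0483).

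ENG, the endoglin co-receptor, gave different values at its 2 probe sets. Probe set 201809_s_at read log2 5.81 and 6.14 in parental cells, 6.66 and 6.40 in T2, 6.78 and 6.70 in T3, 7.21 and 7.31 in T6, and 7.30 and 7.47 in T8. Every tumour array exceeded both parental arrays, and every sensitive array exceeded every resistant one. The tumours were 1.0 ± 0.10 higher, 2-fold (limma adjusted p = 2.05e-06). In the order parental, T2, T3, T6, T8, the step from parental to T2 (0.55 ± 0.13, limma adjusted p = 0.00489) and that from T3 to T6 (0.52 ± 0.13, 0.0101) passed, and those within each class did not. Resistant tumours were lower by 0.69 (SE 0.09, limma adjusted p = 0.000225). Probe set 201808_s_at read 5.57 to 6.15 over all arrays, and its 2 arrays of a line had an SD of up to 0.31, while its line means spanned 0.25. It gave no call in any comparison, with -0.07 ± 0.14 for the tumours against parental cells and -0.02 ± 0.13 for resistant against sensitive tumours. When both probe sets were averaged, the tumours were higher by 0.47 and resistant tumours lower by 0.35, with limma adjusted p up to 0.00578 and 0.0319 over the alternatives tried.

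VWF, the stored clotting glycoprotein, read within the olfactory receptor range at both probe sets. Probe set 202112_at ran from log2 4.43 to 4.97 and never reached 5. Probe set 233980_s_at read 5.01 and 4.97 in parental cells, 5.08 and 5.07 in T2, 4.88 and 4.85 in T3, 4.73 and 4.69 in T6, and 4.60 and 4.71 in T8, so that 3 arrays reached log2 5. No neighbours in its order of lines differed. Resistant arrays all lay above sensitive ones, by 0.29 ± 0.09 on average. Among the tumours only the T2 arrays reached log2 5, so the limit admitted the probe set where a resistant tumour was high. That difference is therefore given as a description, without the p-value of its call. The tumours and parental cells differed by -0.16 ± 0.10 (limma adjusted p = 0.229). The call between resistant and sensitive tumours was lost without any single tumour array, with limma adjusted p from 0.0579 to 0.145, with no limit on low values (0.0546) and with quantile normalisation repeated (0.0661).

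EGFL7, the secreted matrix protein, was the only member called lower in the tumours. It read log2 7.95 and 7.98 in parental cells, 7.48 and 7.23 in T2, 7.39 and 7.06 in T3, 7.12 and 7.17 in T6, and 7.37 and 7.57 in T8. Every tumour array lay below both parental arrays. The tumours were lower by 0.66 (SE 0.10, 1.58-fold, limma adjusted p = 8.2e-05). The 4 tumours did not differ from their neighbours in the order T6, T3, T2, T8, while T8 lay 0.49 ± 0.13 below parental cells (limma adjusted p = 0.00676). Resistant and sensitive tumours had means of 7.29 and 7.31, and the difference of -0.02 ± 0.09 (limma adjusted p = 0.912) turned sign under both other scalings.

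EGFL7 fell together with the genes beside it. Its 4 nearest measured protein-coding neighbours in the RefSeq gene table on chromosome 9, NOTCH1 and SEC16A on one side and AGPAT2 and DIPK1B on the other, were all lower in the tumours. NOTCH1, a Notch receptor, fell by 0.58 (limma adjusted p = 0.000109) and SEC16A, of endoplasmic reticulum exit sites, by 0.45 (8.49e-05). AGPAT2, a lipid synthesis enzyme, fell by 0.50 (1.26e-05) and DIPK1B by 0.61 (0.000259). In 3 of these 4 genes, SEC16A, AGPAT2 and DIPK1B, the lines stood in EGFL7's own order, from T6 over T3, T2 and T8 to parental cells. In a wider window chosen after these values were seen, 11 of the 20 nearest tested neighbours of EGFL7, 10 on each side, were called lower in the tumours by limma and 0 higher (0 also at an unadjusted p under 0.05), with a median of -0.26. Taking the brightest probe set of each of 14929 genes, 41% were called in this comparison, 24.8% higher and 16.2% lower. ENG, also on chromosome 9, had 7 of 20 called lower and 0 higher around it (0 also at an unadjusted p under 0.05, limma), while its own probe set 201809_s_at rose. Of ENG's nearest neighbours, AK1, an adenylate kinase, fell by 0.57 (limma adjusted p = 7.69e-07) and ST6GALNAC6 by 0.25 (0.0184, and up to 0.229 without parental replicate 2), and FPGS and CDK9 were not called against parental cells. CDK9 was lower in resistant than in sensitive tumours by 0.34 (limma adjusted p = 0.00157).

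Around the other members, calls among the neighbours went both ways. ESAM and ROBO4 lie near each other on chromosome 11 with 2 protein-coding genes between them, MSANTD2 and ROBO3. MSANTD2 was higher in the tumours by 0.33 ± 0.09 (limma adjusted p = 0.0114), a call lost without parental replicate 2 (adjusted p up to 0.26 over the alternatives), and ROBO3, a neural roundabout receptor, was not called (0.02 ± 0.08). On ROBO4's far side, SLC37A2, a sugar phosphate transporter, fell by 0.99 (limma adjusted p = 1.32e-07). CCDC15, between ROBO4 and SLC37A2, was not called. On ESAM's other side, NRGN, or neurogranin, was higher by 0.21 (0.0377), a call lost under both other scalings and without 5 single arrays (up to 0.625), and VSIG2, which had ESAM's own order of lines, was not called (0.17 ± 0.10). Of 20 neighbours, 4 were higher and 4 lower around ESAM, and 4 higher and 2 lower around ROBO4. Around CDH5 7 were higher and 3 lower, around PECAM1 4 and 1, and around VWF 8 and 4. Of all genes 24.8% were called higher and 16.2% lower. The windows of ESAM and ROBO4 overlap, and each counts the other gene among its higher neighbours. Beside CDH5 on chromosome 16, CDH11, a mesenchymal cadherin, went the other way from CDH5, lower in the tumours by 0.87 (limma adjusted p = 3.82e-08) and 0.64 ± 0.06 higher in resistant than in sensitive tumours (4.08e-06). TK2, on CDH5's other side, was not called against parental cells, and CDH8 and BEAN1 were below the limit for testing. Beside PECAM1 on chromosome 17, MILR1 fell by 1.01 and ERN1 rose by 0.61 in the tumours (limma adjusted p = 0.000105 and 0.000103). Averaged over its probe sets, the rise of ERN1 was 0.23. POLG2 was higher by 0.22 (0.0215), a call lost without either parental array and with quantile normalisation repeated (up to 0.117), and TEX2 was not called. Beside VWF on chromosome 12, the tetraspanin CD9 rose by 0.45 in the tumours (limma adjusted p = 9.36e-07), but not when its probe sets were averaged (0.04, adjusted p = 0.568). KCNA5 fell by 0.45 (0.00788, and up to 0.195 without parental replicate 2), and ANO2 and PLEKHG6 were not called. The line means of KCNA5, 4.88 to 5.46, lay within the olfactory receptor range.

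**Figure D3:**
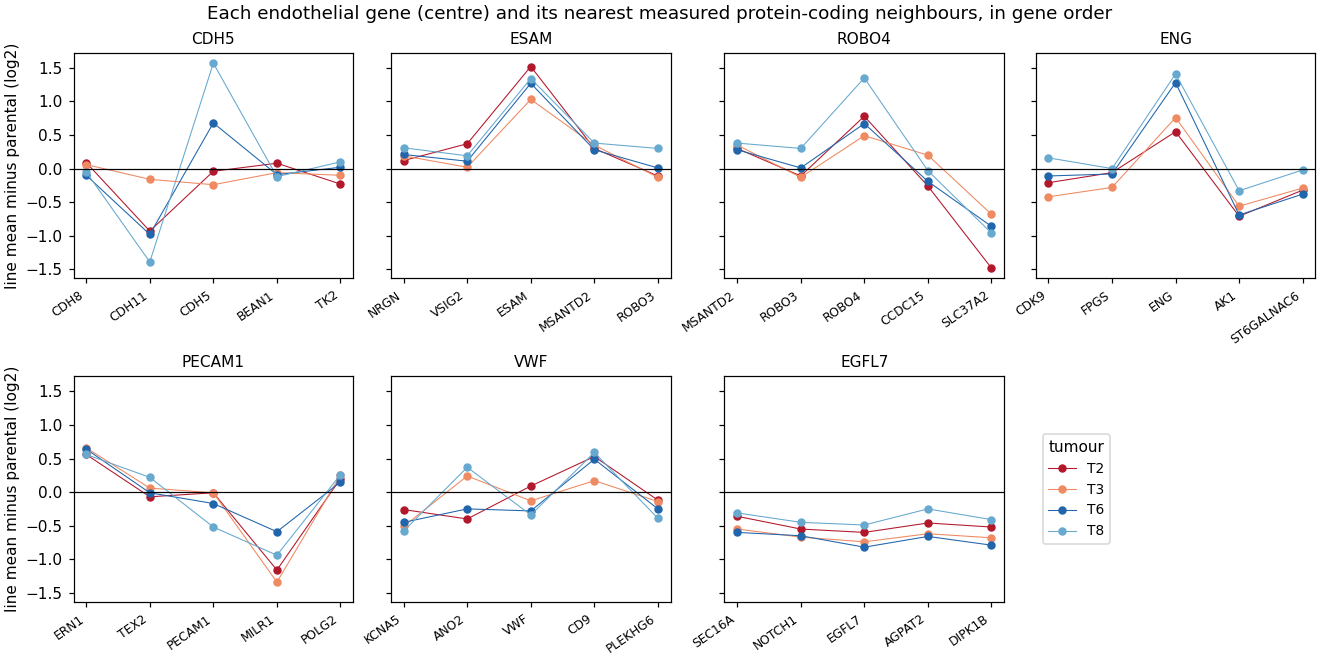
Line mean of each tumour minus the parental mean (log2, vertical axis) for the brightest probe set of each member gene, in the centre of its panel, and of its 2 nearest measured protein-coding neighbours per side. In all 4 tumours EGFL7 and its 4 neighbours lay below 0, with means over the tumours from -0.66 to -0.45.

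Other genes typical of endothelium were partly near background, and some rose. Of 27 further endothelial identity genes measured, 8 stayed below log2 5 on every array, among them EMCN, MMRN2, SELE and CD93, 13 were at or above log2 5 on every array, and 17 could be tested. In the tumours 6 were called higher and 1 lower, where 24.8% and 16.2% of all genes were. ESM1, a secreted endothelial proteoglycan, was among them, but it passed the limit for testing only through T3 and T8. Its line means were 4.32 in parental cells, 4.56 in T2, 10.49 in T3, 4.31 in T6 and 7.69 in T8, so that only T3 and T8 were high. MCAM, a melanoma and endothelial adhesion molecule, rose by 1.30 from 8.10 to between 9.20 and 9.66 in the tumours (limma adjusted p = 2.66e-09), or by 0.49 when its probe sets were averaged. ICAM2, an endothelial ligand of leukocyte integrins, rose by 0.53 (9.27e-06). TIE1, an angiopoietin-pathway receptor, was called higher too, but it passed the limit only through T8, with line means of 4.46 in parental cells, 4.82 in T2, 4.67 in T3, 4.80 in T6 and 5.51 in T8, all within the olfactory receptor range. THBD, the thrombin receptor thrombomodulin, fell by 0.35 (0.00641), a call lost without parental replicate 1 (up to 0.062). The list's median was -0.09, and that of all tested probe sets 0.00. Between resistant and sensitive tumours 1 of the 17 was called higher, ESM1, and 5 lower, among them TIE1, both with the limit just given. The others included APLN, the apelin ligand, lower by 0.40 (limma adjusted p = 0.00855) and NOS3, the endothelial nitric oxide synthase, by 0.36 (0.0186). The NOS3 call was lost without T2 replicate 2, either T6 array or T8 replicate 1 (adjusted p up to 0.147 over the alternatives). The 1 other lower gene named, MCAM, by 0.32 (0.00551), lost its call when its probe sets were averaged (-0.05, adjusted p = 0.558). Of the brightest probe sets of all genes 17.5% were called in that comparison, 4.34% higher and 13.2% lower.

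**Figure D4:**
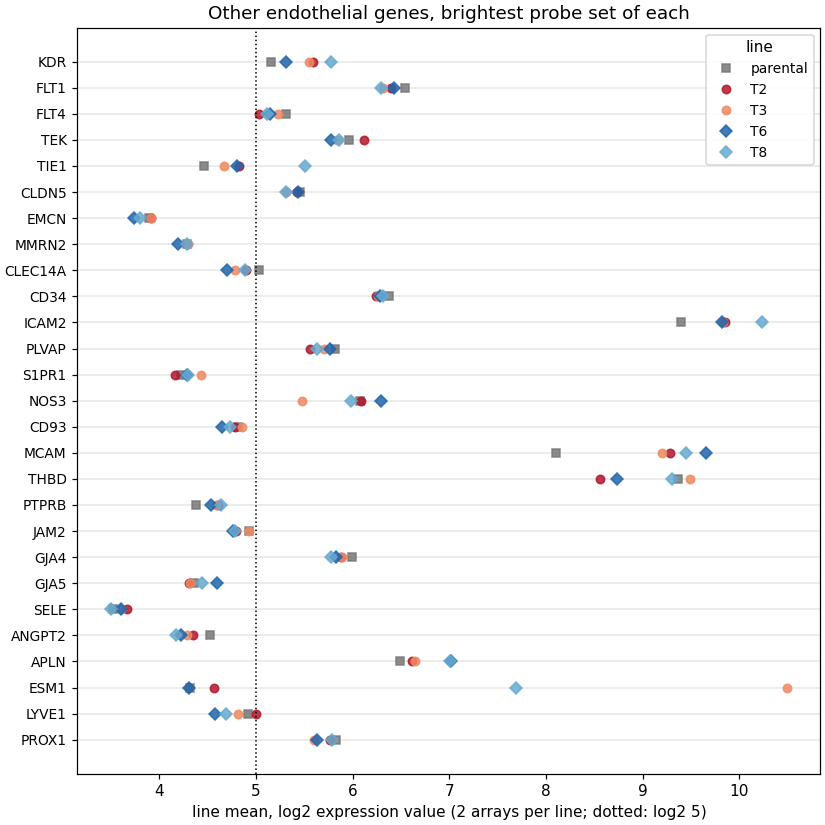
Line means (log2, horizontal axis) of the brightest probe set of each of the 27 further endothelial identity genes in the 5 lines, with log2 5 as a dotted line. ESM1 stood at 10.49 in T3 and 7.69 in T8 and between 4.31 and 4.56 in the other lines, while most other genes kept within a narrow range.

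Of 19 transcription factors of endothelium measured, 5 stayed below log2 5 on every array and 12 were at or above it on every array. ERG, the ETS factor most typical of endothelium, read log2 3.78 to 4.08 over the arrays, and SOX7, SOX17 and SOX18 also stayed below log2 5. TAL1 (line means of 6.85 to 7.01), GATA2 (7.53 to 8.08) and LYL1 (8.46 to 8.90), factors shared with blood cells, read above the olfactory receptor range. Of 14 tested factors 7 rose and 2 fell in the tumours, against 24.8% and 16.2% of all genes. HEY1, a Notch-responsive repressor, rose by 0.90 (limma adjusted p = 3.09e-07), ETS1 by 0.85 (6.17e-07), the homeobox factor HHEX by 0.69 (8.76e-06) and MEF2C by 0.56 (0.000106). ETS1 rose in each tumour, with 10.81 in parental cells and 11.49 to 11.90 in T2 to T8, and by 0.56 when its probe sets were averaged. MEF2C averaged over probe sets rose by 0.32. FLI1 fell by 0.39 (0.0124), a call lost without parental replicate 2 (adjusted p up to 0.192 over the alternatives), and KLF4 by 0.32 (0.000501). FLI1 read log2 4.85 to 5.53 over the arrays, within the olfactory receptor range. Between resistant and sensitive tumours LMO2, a haematopoietic and endothelial cofactor, was lower by 0.63 (limma adjusted p = 0.000745). LMO2 was highest in T8, at 7.25 against 5.84 to 6.35 in the other lines. Its difference was -0.24 when its probe sets were averaged. MEF2C was higher by 0.47 (0.00106), and LYL1 by 0.23 (0.0303), a call lost without T2 replicate 1, T3 replicate 1, either T6 array or T8 replicate 1 (adjusted p up to 0.138).

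The pathways in which the members act moved in part, and the counts in the tumours that follow stand against 24.8% of all genes called higher and 16.2% lower, and those in resistant tumours against 4.34% and 13.2%. Of 8 tested partners and relatives of CDH5 at adherens junctions, CTNNB1, or beta-catenin, rose by 0.31 in the tumours (limma adjusted p = 0.00367, and up to 0.196 without parental replicate 2), and 3 fell, CDH11, JUP by 0.45 (0.000135) and AFDN by 0.33 (0.00173). In resistant tumours 1 of the 8 was called, CDH11, which was higher. Of 18 tested genes of endoglin signalling, 6 rose and 6 fell. ID2, a target of BMP signalling, rose by 2.20 (limma adjusted p = 1.5e-10), from 6.13 in parental cells to 9.23 in T2, 7.20 in T3, 8.92 in T6 and 8.0 in T8. The inhibitory SMAD6 rose by 0.94 (2.38e-06), or 0.36 averaged over probe sets, with T3 at the parental level (6.26 and 6.25). The receptor TGFBR2 rose by 0.64 (9.99e-08) and the ligand TGFB1 by 0.50 (2.33e-06), or 0.23 averaged over probe sets. Other BMP targets went the other way, ID1 by -0.51 (1.91e-05) and ID3 by -0.31 (0.00306, and up to 0.0613 without parental replicate 1), as did TGFBR1 by -0.50 (0.000114) and SMAD3 by -0.42 (4.64e-05). TGFBR2 was lower in resistant than in sensitive tumours by 0.63 (limma adjusted p = 4.63e-07), with line means of 11.30 in T2 and T3, 11.83 in T6 and 12.04 in T8. TGFBR1 was lower by 0.27 (0.0184), a call lost without T2 replicate 1, T3 replicate 1, T6 replicate 2 or T8 replicate 1 (up to 0.106). No other gene of that list was called there.

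In the Slit and roundabout list of 10 tested genes, ROBO1, the widely expressed roundabout receptor, rose by 2.71 in the tumours (limma adjusted p = 4.98e-12), from 6.44 to between 8.99 and 9.29, and UNC5B, a netrin receptor reported to bind ROBO4, fell by 0.27 (0.0283). The UNC5B call was lost without either parental array, T6 replicate 1 or T8 replicate 1 (adjusted p up to 0.158). ROBO2 stayed below log2 5 on every array. In resistant tumours SLIT1 was higher by 0.30 (0.048) and ROBO3 lower by 0.27 (0.0209), and neither call held when single arrays were left out. The SLIT1 call was lost without T2 replicate 1, T3 replicate 1 or any T6 or T8 array (up to 0.191), and the ROBO3 call without T2 replicate 1, T3 replicate 1, T6 replicate 2 or either T8 array (up to 0.109). Among 8 tested genes of VWF secretion and clearance, CD63, a tetraspanin of storage granules, rose by 0.17 (limma adjusted p = 0.00703, and up to 0.134 without parental replicate 2). VAMP8, a vesicle fusion protein, rose by 0.14 (0.0408), a call lost without either parental array or replicate 2 of T3, T6 or T8 (up to 0.61). RAB27A, a GTPase of secretory granules, was lower in resistant tumours by 0.31 (0.00157), while SELP and VAMP8 were higher by 0.35 and 0.15 (0.0468 and 0.0362). The SELP call was lost without T2 replicate 1 or T8 replicate 1 or any T3 or T6 array (up to 0.211), and the VAMP8 call without any tumour array but T2 replicate 1 (up to 0.169). SELP read log2 4.98 to 5.71 over the arrays, within the olfactory receptor range. Of 12 tested Notch genes 0 rose (0 also at an unadjusted p under 0.05) and 7 fell in the tumours by limma, where 24.8% of all genes rose and 16.2% fell, and the list's median was -0.26. JAG2, a ligand, fell by 0.71 (1.65e-05), NOTCH1 by 0.58, NOTCH2 by 0.49 (5.7e-06) and NOTCH3 by 0.39 (0.00564; 0.0502 averaged over probe sets). In resistant tumours JAG2 was higher and NRARP lower by 0.28 each (0.0294 and 0.0324). The JAG2 call was lost without T2 replicate 1, T3 replicate 1 or any T6 or T8 array (up to 0.126), and the NRARP call without T2 replicate 2, T3 replicate 1 or any T6 or T8 array (up to 0.135).

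Markers of other cells that a regrown tumour could hold were measured beside these results. The probes are human, and how far mouse transcripts bind to them was not tested, for these markers or for any difference between tumours and parental cells. PTPRC, the pan-leukocyte marker, read log2 3.78 to 4.16 over the arrays, and PPBP of platelets 3.50 to 3.92. The 12 leukocyte and platelet genes measured averaged 6.14 to 6.30 on the parental arrays and 5.91 to 6.22 on the tumour arrays. Of the 10 tested, 1 rose in the tumours, PF4 by 0.33 (limma adjusted p = 0.0166, and up to 0.318 without parental replicate 1), and 5 fell, led by CSF1R by 0.68 (0.000166) and LAPTM5 by 0.61 (6.12e-07). Between resistant and sensitive tumours, 3 of the 10 were higher, PF4 by 0.51 (0.00157), AIF1 by 0.38 (0.0163) and HBB by 0.29 (0.0419), and 2 were lower, LAPTM5 by 0.74 (3.37e-07) and CD14 by 0.37 (0.0122). The AIF1 call was lost without T2 replicate 1, T3 replicate 1, either T6 array or T8 replicate 1 (up to 0.0876). The HBB call was lost without T2 replicate 1, T3 replicate 2 or any T6 or T8 array (up to 0.146), and the CD14 call without T6 replicate 2 or T8 replicate 1 (up to 0.0699). CSF1R (log2 4.78 to 5.70 over the arrays) and CD14 (5.31 to 6.08) read within the olfactory receptor range. The 11 fibroblast and pericyte genes averaged 5.88 to 5.90 on parental and 5.75 to 5.94 on tumour arrays, and COL3A1, LUM and PDGFRA stayed below log2 5 on every array. Of the 8 tested 0 rose in the tumours by limma (0 also at an unadjusted p under 0.05) and 2 fell, COL1A2 by 0.38 and DCN by 0.31 (adjusted p = 0.024 and 0.0416). The COL1A2 call was lost without parental replicate 1 (up to 0.237), and the DCN call without any array but T2 replicate 1 and T3 replicate 1 (up to 0.297). ACTA2 and RGS5 were higher in resistant tumours by 0.38 and 0.39 (limma adjusted p = 0.0104 and 0.0195). The ACTA2 call was lost without T6 replicate 2 (0.0695), and the RGS5 call without replicate 2 of T2, T3 or T6 or T8 replicate 1 (up to 0.104). The 27 further endothelial genes averaged 5.52 to 5.56 on parental arrays and 5.56 to 5.80 on tumour arrays. That average was highest in T3 (5.77 to 5.80) and T8 (5.74 to 5.76), the lines in which ESM1 alone stood far above parental cells. ESM1 had line means of 10.49 in T3 and 7.69 in T8, against 4.32 in parental cells. An average without ESM1 was not taken, and the median change of the tested genes of that list was -0.09. The part of these markers in the members' results was not tested.

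The genes whose values followed a member's most closely were sought among 9429 or 9428 tested probe sets of other single genes whose line means spanned at least log2 0.5. Pearson's r was taken over the 10 arrays, which fall into 5 pairs, so that high values are easily reached. CDH5 was followed most closely by S1PR5, a sphingosine phosphate receptor (r = 0.977), which stood at 5.72 to 5.76 in parental cells, T2 and T3, 6.09 in T6 and 6.86 in T8, and then by OBSL1 (0.973) and DHTKD1 (0.970). ESAM was followed by MYG1 (0.996), PRR14 (0.994) and TEAD4, a partner of YAP (0.992). ROBO4 226028_at was followed by MAP3K20 (0.989), DEF6 (0.988) and CMIP (0.984), and 220758_s_at by RFTN1 (0.987), DCTPP1 (0.986) and RDUR (0.982). ENG 201809_s_at was followed by MMAB (0.963), RPUSD3 (0.959) and CFAP45 (0.956). PECAM1 1559921_at was followed by LOC101928343 (0.977), RAB4B (0.946) and ACTL7A (0.934), and 208982_at by CDH11 probe set 239286_at (0.935), RPS6KA2 (0.925) and PHC2 (0.913). EGFL7 was followed by DGAT2, a triglyceride synthesis enzyme (0.969), TRAPPC6A (0.959) and SERPINA1, or alpha-1-antitrypsin (0.950). SERPINA1 fell much further than EGFL7, with 9.36 in parental cells against 5.35 to 6.51 in T2 to T8.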

How the data were processed

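RNA of 10 arrays, 2 for each of 5 lines, was analysed. The authors deposited log2 values of 54675 probe sets for every array, and the submitters' processing notes name affy, RMA and limma, without versions or settings. RMA corrects background, quantile-normalises over arrays and summarises probes by median polish, which can compress differences near background. Groups were taken from the sample labels. Probe sets were named through the supplied platform annotation, with 41037 symbols brought up to date by Entrez number (RefSeq, GRCh38.p14); 41091 had 1 symbol, 1801 several and 11721 none, and 62 controls were left out.

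Members and lists were chosen with earlier results of these data known. Probe sets that reached log2 5 on at least 2 arrays were tested, 33341 in all, in limma 3.58.1 under R 4.3.3 (lmFit, eBayes with trend), with Benjamini-Hochberg adjustment over all of them and a threshold of 0.05. The array fit had 1 coefficient per line (5 residual degrees of freedom, prior 10.27). The fit of line means, with the tumour as the replicate, had 2 and 2.99. Errors are standard errors of the moderated fit. Fits were tested on simulated data. For lists and neighbours the brightest of a gene's probe sets stood for it.

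All member probe sets were named. Of each list, called genes with the largest changes were named, up to 4 per direction and comparison, and of the neighbours the 2 nearest per side. Some genes of the lists are not reported here. Alternatives covered the limit on low values, normalisation, the intensity trend, the unit of testing, a replicate block and leaving out each array.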

Additional observations from a re-analysis of the deposited data

Results flagged for a closer look

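CDH5 had resistant and sensitive tumours on opposite sides of parental cells. Both resistant tumours lay below every parental array and both sensitive tumours above, with a difference of -1.27 on the log2 scale. The probe set entered the test through T8 alone, its difference was called over arrays but not over tumours, and the gap between parental and T2 arrays was small (3.57 against 3.56). Neither resistant tumour was called against parental cells over arrays, with -0.04 ± 0.14 in T2 and -0.24 ± 0.14 in T3. All parental, T2 and T3 arrays lay under the olfactory receptor median of 4.27.

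In 4 probe sets 1 of the 4 sensitive arrays stood apart from the other 3 by Dixon's criterion, which chance meets in about 1 of 20 groups. VWF 202112_at had its highest sensitive array at log2 4.86, MSANTD2 at 8.51 and NOTCH1 at 7.92, and KCNA5, a potassium channel gene beside VWF, had its lowest at 4.70.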

How the results depend on the processing

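The members' counts of calls kept within 1.5 times of those reported in most of 21 alternatives. With the tumour as the replicate, the count was 0 throughout. The count over arrays between resistant and sensitive tumours was the least steady. It left that range when probe sets were averaged and without T2 replicate 1, T3 replicate 1 or any T6 or T8 array. It did so too with a limit on the mean over all arrays, added after seeing the data, which gave 3 calls. When the probe sets of a gene were averaged, 6 genes could be tested, and 3 were called between resistant and sensitive tumours and 5 in the test over lines. Leaving out 1 array gave 2 to 5 calls between resistant and sensitive tumours, 5 or 6 against parental cells, 5 to 8 over lines and 30 to 45 over pairs, the lowest without T8 replicate 1. The median of all probe sets was 5.49 where that of olfactory receptors was 4.27. Values that changed sign were close to 0. Between resistant and sensitive tumours, over arrays and with the tumour as the replicate, ESAM became 0.02 with quantile normalisation repeated and 0.03 with centred medians, EGFL7 0.06 and 0.04, and ENG 201808_s_at 0.04 with centred medians. Without single arrays, ENG 201808_s_at ran from -0.13 to 0.09 and EGFL7 from -0.10 to 0.06 there. Against parental cells, ENG 201808_s_at ran from -0.24 to 0.09 without single arrays, and PECAM1 208981_at was -0.03 with centred medians and -0.05 to 0.06 without single arrays. CD9, averaged over its probe sets, was 0.06 higher in resistant tumours instead of lower by 0.19. Of the calls of other named genes, 10 of 29 between resistant and sensitive tumours and 31 of 51 against parental cells held in every alternative in which they could be tested.

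With the replicate number as a block, 4 members were called between resistant and sensitive tumours, 6 against parental cells, 8 over lines and 44 over pairs. VWF 233980_s_at lost its call (adjusted p = 0.0518). The deviations of same-numbered arrays correlated at -0.3646 (parental and T2) to 0.4729 (T2 and T3) between lines. The signs differed, so the numbers do not pair the arrays in one way over all lines. Whether deviations were shared between lines under another pairing was not tested. Signals within the olfactory receptor range, those of CDH5, VWF, ENG 201808_s_at, the parental arrays of ENG 201809_s_at and most PECAM1 probe sets, limit what can be read from them. The same limit holds for FLI1, CSF1R, SELP, CD14, KCNA5 and TIE1 among the other named genes.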
